A study of Mus musculus with 23 samples.

Results

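The genes described here belong to 14 families of transcription factors that pattern the embryo, the Hox, Sox, Pax, sine oculis-related, Irx, Lhx, Dlx, Msx, Meis, Pbx, Gata, Tbx, Runx and Klf families. They were taken by symbol from a targeted panel, with Irx3 left out by the rule, which gave 89 members of the panel's 3826 genes. The rule itself uses no measured value. The panel was read in 23 mouse mammary carcinomas, 12 from mice given abemaciclib and 11 from mice given control vehicle. Abemaciclib is an inhibitor of the cell-cycle kinases CDK4 and CDK6, and was given by gavage at 90 mg/kg each day. All mice had received doxycycline at 6 weeks of age, and were allotted to a group once tumours were present. Tissue was frozen after 12 doses. The labels name neither the transgene that doxycycline acts on, nor the promoter that drives it, nor the animal behind each tumour. Tests between groups therefore measure the spread between these tumours, and whether any share a mouse is not known.

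Hox proteins bind DNA through a homeodomain and give cells their position along the body axis. Their genes lie in 4 clusters, and neighbours in a cluster are often switched on together and kept silent together by Polycomb proteins. Hox proteins gain DNA specificity by binding with the TALE homeodomain proteins of the Pbx and Meis families. In the mammary gland, Gata3 maintains luminal cells, Sox9 and Sox10 mark progenitor cells, Runx1 is a luminal lineage factor and Tbx3 is needed for the embryonic gland to form.

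Each gene was represented by 1 short amplicon, and libraries held 2756919 to 4990391 counts in abemaciclib tumours and 3044380 to 4492736 in control tumours. Levels are given as CPM, a gene's counts scaled to a fixed library total after the totals were adjusted by TMM factors. How well each amplicon is amplified is not known, so levels of different genes, which length scaling cannot correct here, are only roughly comparable. Members took 0.281 to 0.395% of the counts in abemaciclib tumours and 0.285 to 0.465% in control tumours. Epithelial markers were present throughout, with Krt8 at 439 to 3024 CPM and Epcam at 838 to 1406 CPM in abemaciclib tumours, against 824 to 1866 CPM and 791 to 1758 CPM in control tumours. In bulk tissue, fewer cells of a type and less RNA per cell cannot be told apart, and this holds for every difference below.

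Of the 89 members, 25 had enough counts to be tested and 64 were too low and were set aside. By edgeR's quasi-likelihood test with Benjamini-Hochberg adjustment, 0 of the 25 passed an adjusted p of 0.05, beside 0% of the 2925 tested panel genes. At an unadjusted p under 0.05, 0 members were higher in abemaciclib tumours, against 7.59% of tested genes. By the same rule 3 members were lower, Hoxb2, Hoxb4 and Hoxb8, which is 12% of members against 5.81% of tested genes. DESeq2's Wald test called 0 members at its adjusted threshold (panel background 2.05%), limma-voom with quality weights called 0 (4.34%) and a permutation test of log2 CPM called 0 (0%). Their unadjusted calls were other genes. DESeq2 gave Sox11 (background 14.2%), limma-voom gave Sox11 and Runx1 (17.8%), and the permutation test gave Sox11 (13.2%). Without the filter, 77 members had at least 1 count, and edgeR again called 0 at the adjusted threshold (0%). The median log2 fold change, abemaciclib over control, was 0.01 over the 25 members, 13 of them positive and 12 negative, and also 0.01 over all tested genes.

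**Figure D1:**
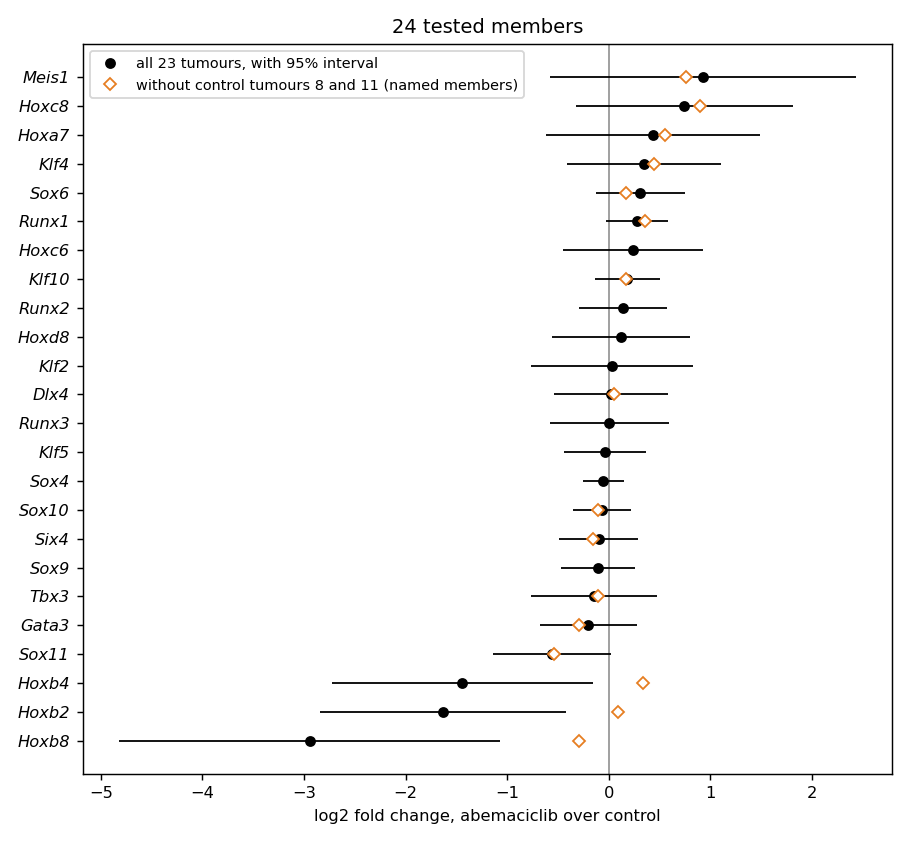
Log2 fold change of 24 tested members, abemaciclib over control (x axis), by edgeR. Black points are the fits on all 23 tumours with 95% intervals, and open diamonds the fits of named members without control tumours 8 and 11. Of the 24 intervals 21 include 0, and the 3 that do not, those of Hoxb8, Hoxb2 and Hoxb4, have diamonds at -0.29, 0.09 and 0.34. Abemaciclib tumour 8, also high for Hoxb2 and Hoxb4, stays in the fits shown by diamonds.

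Much of the variation of the HOXB genes lay in single tumours. The panel's genes of this cluster lie on the plus strand of chromosome 11 (GRCm38), in the order Hoxb13, Hoxb9, Hoxb8, Hoxb7, Hoxb5, Hoxb4, Hoxb3, Hoxb2 and Hoxb1. Genes of the cluster that the panel does not hold were not measured. Hoxb8 (chr11:96281905-96285315), a patterning gene also known for blocking differentiation of myeloid cells when forced on, is near the middle. The stretches of 250 bases before the starts of Hoxb8 and Hoxb4 are shown because these genes of 1 cluster were high together in 1 tumour. That of Meis1, which encodes a DNA-binding partner of Hox proteins, is shown beside them. They come from RefSeq on GRCm38.p6, at chr11:96281655-96281904 and chr11:96318017-96318266 on the plus strand and chr11:19018970-19019219 on the minus strand. The RefSeq start of Meis1 lies inside the gene as placed by GENCODE, so the last bases of its stretch fall within that gene. The table matched 3 of the 6 genes looked up, and Hoxb2, Hoxb3 and Hoxb5 are named only. Capitals mark matches on either strand to TGATNNAT, the site bound by Hox and Pbx proteins together, to TATAAA and to CCAAT, and no letter was shared between matches.
Hoxb8: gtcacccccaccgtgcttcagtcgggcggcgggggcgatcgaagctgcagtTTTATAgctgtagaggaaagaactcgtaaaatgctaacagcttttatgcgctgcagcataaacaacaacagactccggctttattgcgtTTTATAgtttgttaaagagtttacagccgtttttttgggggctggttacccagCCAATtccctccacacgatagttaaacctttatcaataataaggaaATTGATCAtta
Hoxb4: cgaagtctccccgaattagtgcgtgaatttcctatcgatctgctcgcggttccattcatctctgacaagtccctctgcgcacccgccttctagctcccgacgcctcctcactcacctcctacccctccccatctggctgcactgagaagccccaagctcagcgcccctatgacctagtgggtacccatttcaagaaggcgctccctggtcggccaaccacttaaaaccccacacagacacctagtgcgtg
Meis1: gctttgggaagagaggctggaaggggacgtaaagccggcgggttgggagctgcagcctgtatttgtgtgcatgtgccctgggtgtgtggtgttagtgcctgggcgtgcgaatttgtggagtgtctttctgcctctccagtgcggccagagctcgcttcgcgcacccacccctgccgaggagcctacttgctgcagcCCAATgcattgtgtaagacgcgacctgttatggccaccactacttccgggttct
The Hoxb8 stretch held 1 match to TGATNNAT, 2 to TATAAA and 1 to CCAAT, the Hoxb4 stretch held 0 of each, and that of Meis1 held 1 CCAAT. Among 32536 promoter stretches of the same length, 7.66% held TGATNNAT, 12.3% TATAAA and 33.8% CCAAT. CpG dinucleotides numbered 12 in the Hoxb8 stretch, 14 in that of Hoxb4 and 13 in that of Meis1. The median over all stretches was 6, and 38.1% of them held 10 or more. A match describes letters in the sequence and is not a measured binding site.

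Hoxb8 had 0 to 4.28 CPM in abemaciclib tumours, with a median of 1.06, and 0 to 137 CPM in control tumours, with a median of 2.66. Control tumour 11 alone held 533 of its counts, 73.8% of the total over 23 tumours, while the other 22 held 0 to 20. Apart from that tumour the groups overlapped. The edgeR fold change was -2.95 on the log2 scale (SE 0.901, unadjusted p = 0.00310, adjusted p = 0.128), and without control tumour 11 it was -0.30 (adjusted p = 0.863). By DESeq2 the adjusted p was 0.871, by limma-voom 0.369, and by the permutation test of log2 CPM the unadjusted p was 0.216. No member had a DESeq2 log2 fold change below -0.78, so its p stands beside a smaller difference than that of edgeR. The coefficient of variation of Hoxb8 over 23 tumours, 357%, was the highest of the 2925 tested genes, a rank that tumour 11 sets.

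Hoxb2, which patterns the hindbrain, had 1.80 to 33.9 CPM in abemaciclib tumours, with a median of 7.81, and 3.93 to 156 CPM in control tumours, with a median of 11.0. Its log2 fold change was -1.63 (SE 0.582, edgeR adjusted p = 0.191). Hoxb4, known for expanding blood stem cells, had 0.756 to 18.6 CPM in abemaciclib tumours, with a median of 4.09, and 2.17 to 72.3 CPM in control tumours, with a median of 3.33. The log2 fold change of Hoxb4 was -1.44 (SE 0.617, edgeR adjusted p = 0.288). Both ranges overlapped between groups, and the highest tumour of each gene was a control. Without control tumour 11 the log2 fold changes were -0.85 for Hoxb2 and -0.70 for Hoxb4. Without control tumours 8 and 11 they turned to 0.09 and 0.34, in a fit that kept abemaciclib tumour 8, also high for both genes. Among the alternatives, 36 for Hoxb2 and 35 for Hoxb4, that fit alone changed the sign. With abemaciclib tumour 8 left out as well, both values stayed negative.

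The same 3 tumours were highest for Hoxb2, Hoxb3 and Hoxb4, namely abemaciclib tumour 8, control tumour 8 and control tumour 11. Hoxb2 had 142 counts in abemaciclib tumour 8, 436 in control tumour 8 and 608 in control tumour 11, against 7 to 70 in the other 20 tumours. Hoxb3 had 70, 132 and 191 counts in these tumours in the same order, and 0 to 24 elsewhere, and it was not tested. Hoxb4 had 78, 226 and 282 counts, and 2 to 39 elsewhere. These 3 tumours, 1 treated and 2 control, held 63.8% of the Hoxb2 counts, 68.8% of the Hoxb3 counts and 63.5% of the Hoxb4 counts. Among all 2925 tested genes, those with the same 3 highest tumours were Hoxb2, Hoxb4 and Noxo1, and in Noxo1 these tumours did not stand clear of the next, with a ratio of 1.06.

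The extent along the cluster differed among the 3 tumours. Hoxb8 had 0 counts in abemaciclib tumour 8, 12 in control tumour 8 and 533 in control tumour 11. Hoxb5 had 8, 4 and 59 counts in that order, and Hoxb9 had 0, 5 and 25. In control tumour 11 the raised genes thus ran over both sides of the cluster, while in the other two they were Hoxb2, Hoxb3 and Hoxb4, with Hoxb5 at 8 and 4 counts. Hoxb1, Hoxb7 and Hoxb13 had at most 2 counts in any tumour. In GENCODE the antisense gene Hoxb3os overlaps Hoxb2 and Hoxb3, and Hoxb5os overlaps Hoxb5. Whether counting used strand is not given, so reads of these genes and of their antisense partners cannot be told apart.

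**Figure D2:**
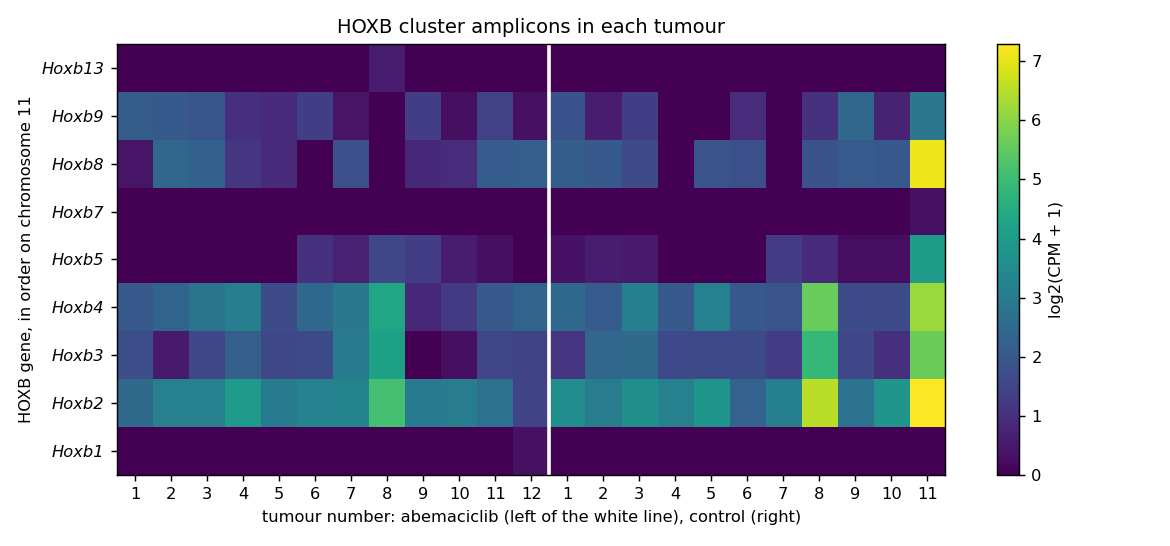
Level of each HOXB amplicon in each tumour, as log2(CPM + 1) (colour), with genes in chromosomal order down the page, abemaciclib tumours left of the white line and control tumours right of it. Abemaciclib tumour 8 and control tumours 8 and 11 stand out for Hoxb2, Hoxb3 and Hoxb4, and control tumour 11 also for Hoxb8 and Hoxb5.

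The 3 tumours differed from each other in their marker sums for other cells. Abemaciclib tumour 8 ranked 3 of 23 for fibroblast markers (8545 CPM) and 6 for endothelial markers (628 CPM). Control tumour 8 had the highest summed cell division markers of all tumours (1706 CPM) and the lowest T or natural killer markers (18.7 CPM). Control tumour 11 had the highest summed adipocyte markers (250 CPM, against 55.4 to 162 CPM in the 12 abemaciclib tumours) and the highest endothelial markers (829 CPM), and ranked 21 for luminal markers. The part of these cells in the HOXB levels was not tested. HOXC amplicons summed to 3.58 to 23.2 CPM in abemaciclib and 2.93 to 20.5 CPM in control tumours, HOXD to 1.54 to 19.4 and 5.13 to 16.9 CPM, and HOXA to 2.39 to 13.4 and 2.25 to 13.8 CPM. Abemaciclib tumour 8 had the lowest HOXC and HOXA sums of its group, 3.58 and 2.39 CPM, while control tumour 11 had the highest of its group, 20.5 and 13.8 CPM. HOXB amplicons summed to 10.8 to 71.7 CPM in abemaciclib and 12.4 to 435 CPM in control tumours, with medians of 16.8 and 19.99.

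Among Hox genes outside HOXB, 4 were tested and 0 passed. Hoxc8, a thoracic patterning gene, had 0.478 to 19.7 CPM in abemaciclib tumours, with a median of 9.21, and 0 to 11.1 CPM in control tumours, with a median of 7.14. The highest tumours were treated, but both groups reached down to almost no counts, and the log2 fold change of 0.74 (SE 0.514) had an edgeR adjusted p of 0.565. Hoxa7 had a median of 3.76 CPM in abemaciclib and 2.01 CPM in control tumours (log2 fold change 0.44, adjusted p = 0.745). Hoxc6 had medians of 3.04 and 2.60 CPM in that order (0.24, adjusted p = 0.794), and Hoxd8 8.93 and 6.96 CPM (0.12, adjusted p = 0.907). These genes differed more between tumours of a group than between groups.

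Among the Hox partners of the TALE class, Meis1 (chr11:18879817-19018985) had 2.06 to 116 CPM in abemaciclib tumours, with a median of 5.02, and 2.72 to 63.6 CPM in control tumours, with a median of 4.38. Its counts were 604 in abemaciclib tumour 3, 330 in abemaciclib tumour 4 and 285 in control tumour 3, together 76.4% of all Meis1 counts, against 8 to 35 in the other 20 tumours. None of these is a tumour with high HOXB counts. The log2 fold change of 0.93 (SE 0.724, edgeR adjusted p = 0.616) was 0.05 without abemaciclib tumour 3, 2.01 without control tumour 3, and -0.01 without all 3. Summed basal markers ranked 1 of 23 in abemaciclib tumour 3 (12785 CPM) and 3 in control tumour 3 (5158 CPM), but 11 in abemaciclib tumour 4 (1551 CPM). Meis2 had 0 to 10 counts in abemaciclib and 0 to 12 in control tumours and was set aside.

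**Figure D3:**
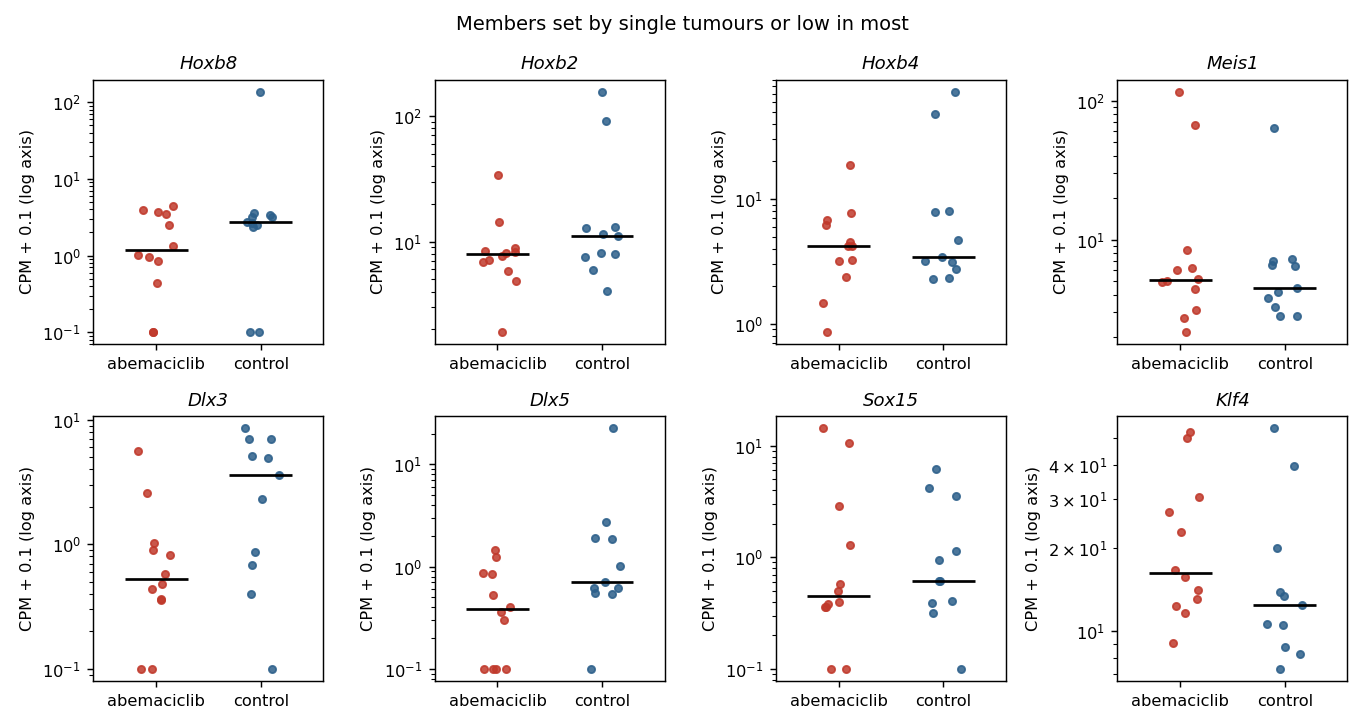
CPM + 0.1 on a log axis for 8 members that were low in most tumours or high in a few, each point 1 tumour and the line the group median. Hoxb8 has 1 control tumour at 137 CPM above all others, Meis1 has high tumours in both groups, and the groups overlap in every panel.

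The abundant members were factors known from the mammary epithelium, and none passed the test. Sox10 (chr15:79154908-79165240) had the highest level of any member, 904 to 1688 CPM in abemaciclib tumours, with a median of 1069, and 720 to 1647 CPM in control tumours, with a median of 1203. Its amplicon ranked 108 among the panel's 3826. The log2 fold change was -0.06, with a 95% interval of -0.35 to 0.22. The groups covered almost the same range, and the interval leaves out a halving or doubling of the mean.

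Gata3 (chr2:9857078-9890034), the luminal master regulator, had 271 to 814 CPM in abemaciclib tumours, with a median of 604, and 255 to 920 CPM in control tumours, with a median of 672. On the log2 scale its fold change was -0.20 (95% interval -0.67 to 0.28). Sox9 (chr11:112782224-112787760) had 230 to 827 CPM in abemaciclib tumours, with a median of 585, and 381 to 894 CPM in control tumours, with a median of 636 (log2 fold change -0.10, 95% interval -0.47 to 0.26). The lowest Sox9 value, 230 CPM, came from abemaciclib tumour 9. Its summed fibroblast markers (19516 CPM) and its summed luminal markers (12692 CPM) were both the highest of all. The part of these cells in the Sox9 level was not tested. Sox4, a factor of progenitor cells and invasion, was the steadiest member, with a coefficient of variation of 15.1%, and had 258 ± 42.7 CPM in abemaciclib and 268 ± 37.6 CPM in control tumours (SD, n = 12 and 11). Its log2 fold change was -0.05, with a 95% interval of -0.26 to 0.15.

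Runx1 (chr16:92601466-92826149) had 279 to 553 CPM in abemaciclib tumours, with a median of 456, and 206 to 497 CPM in control tumours, with a median of 336. Of the treated tumours 8 lay above the control median. The log2 fold change was 0.28 (SE 0.147), with an adjusted p of 0.418 by edgeR, and of 0.380 by DESeq2 and 0.186 by limma-voom. Runx2, the master factor of bone formation, had 21.98 ± 9.03 and 19.9 ± 5.29 CPM in abemaciclib and control tumours (SD, n = 12 and 11; edgeR adjusted p = 0.813). Runx3, known from cytotoxic T cells, had 5.35 to 28.6 CPM in abemaciclib tumours and 10.6 to 55.2 CPM in control tumours (log2 fold change 0.01, adjusted p = 0.995). Its highest tumour was control tumour 8, where summed T or natural killer markers were the lowest of all.

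**Figure D4:**
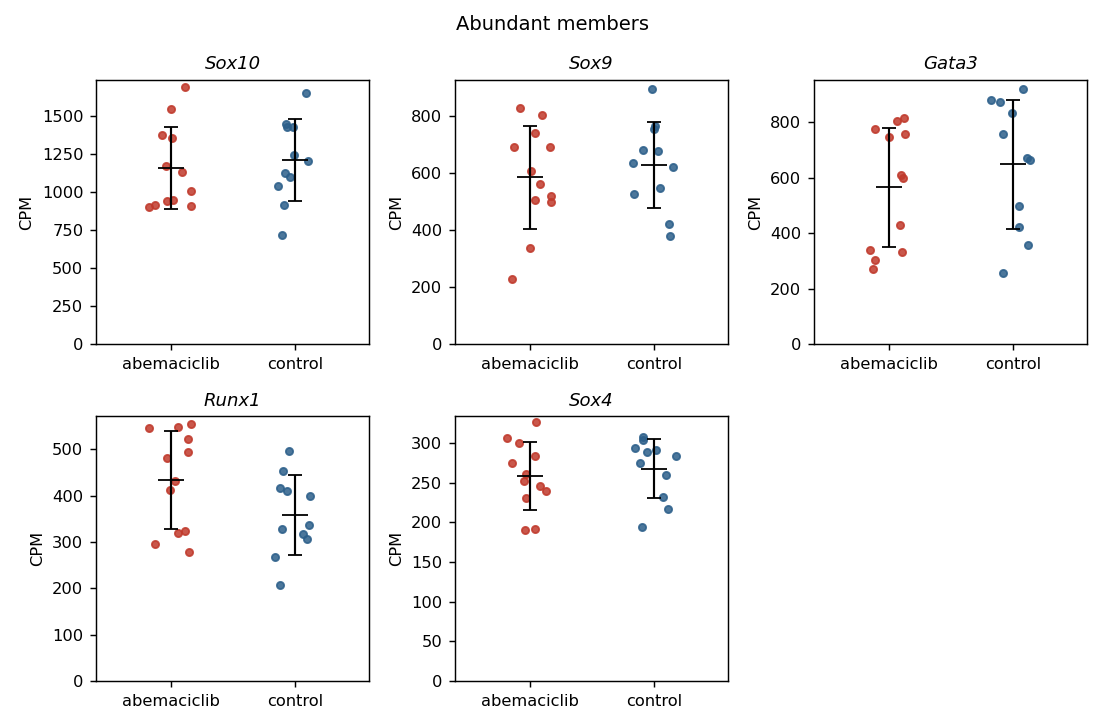
CPM per tumour of 5 abundant members, with points for tumours and bars for the mean and SD (abemaciclib n = 12, control n = 11). For each of Sox10, Sox9, Gata3, Runx1 and Sox4 the groups overlap over most of their range.

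Sox11 (chr12:27334264-27342574), an embryonic neural factor also seen in some basal breast cancers, had 4.78 to 36.2 CPM in abemaciclib tumours, with a median of 11.2, and 11.8 to 43.0 CPM in control tumours, with a median of 21.2. Of the 12 treated tumours 9 lay below the control median, and the ranges overlapped from 11.8 CPM upward. The log2 fold change was -0.56 (SE 0.279), with an edgeR unadjusted p of 0.0571 and an adjusted p of 0.398. The permutation test of log2 CPM gave an unadjusted p of 0.0208 and an adjusted p of 0.264. In every alternative fit the value stayed negative, between -0.89 and -0.41, with adjusted p between 0.0913 and 0.643. Of the remaining SOX members tested, Sox6, which acts in cartilage and red cells, had 9.28 ± 3.00 CPM in abemaciclib and 7.49 ± 2.43 CPM in control tumours (SD, n = 12 and 11; log2 fold change 0.31, edgeR adjusted p = 0.561).

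Of 5 Klf members, zinc finger factors of growth arrest and epithelial differentiation, 4 were tested and 0 passed. Klf10, induced by TGF-beta, averaged 102 ± 30.0 CPM in abemaciclib and 89.5 ± 21.3 CPM in control tumours (SD, n = 12 and 11; log2 fold change 0.18, edgeR adjusted p = 0.648). Klf4, a differentiation and pluripotency factor, had 9.00 to 52.3 CPM in abemaciclib tumours, with a median of 16.1, and 7.21 to 54.0 CPM in control tumours, with a median of 12.4. Its log2 fold change of 0.34 (edgeR adjusted p = 0.717) was -0.08 without abemaciclib tumours 3 and 10. Klf2, known from endothelium and resting T cells, was highest in 1 tumour of each group, at 61.6 CPM in abemaciclib tumour 9 and 50.8 CPM in control tumour 6 (log2 fold change 0.03). Klf5, a factor of epithelial proliferation, had medians of 55.0 CPM in abemaciclib and 48.0 CPM in control tumours (log2 fold change -0.04). Single members passed the filter in 3 more families and did not pass the test. Tbx3 had 11.7 ± 4.86 CPM in abemaciclib and 12.9 ± 7.93 CPM in control tumours (log2 fold change -0.14, edgeR adjusted p = 0.884). Six4, an embryonic muscle factor, had medians of 11.0 and 12.5 CPM in that order (-0.10, adjusted p = 0.869). Dlx4, a distal-less homeobox gene, had medians of 2.44 and 2.61 CPM (0.03, adjusted p = 0.976).

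Most members were near the limit of detection, and were too low to test. Between 41 and 53 members had a count in an abemaciclib tumour and between 44 and 52 in a control tumour. All 7 Pax, 2 Lhx and 2 Msx genes and Irx4 were set aside, as were 27 of 34 Hox genes. Counts of 0 in all 23 tumours were found for 12 members: Gata4, Hoxa11, Hoxc9, Hoxc12, Hoxd1, Hoxd12, Hoxd13, Klf17, Pax2, Pax3, Six3 and Sox3. A count of 0 allows up to 3 counts, which is 0.575 to 1.13 CPM in abemaciclib and 0.612 to 0.907 CPM in control libraries, counting error only. A highest count of 1 to 3 was found for 22 members, among them Dlx1, Dlx2, Dlx6, Gata1, Hoxa10, Hoxb1, Hoxb7, Hoxb13, Hoxc11, Hoxc13, Lhx1, Lhx4, Pax1, Pax5, Pax6, Pax8, Pax9, Six6, Sox1, Sox2 and Sox7. A highest count of 4 to 9 was found for 11 members: Gata6, Hoxa2, Hoxa3, Hoxd3, Hoxd4, Hoxd10, Msx2, Six2, Sox17, Tbx5 and Tbx21. Each gene of these classes had 0 counts in at least 1 tumour.

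Another 19 set-aside members reached 10 counts or more in some tumour, among them Hoxb3, Hoxb5, Hoxb9 and Meis2 given above. Hoxa5 had 1 to 19 counts in abemaciclib and 0 to 14 in control tumours, and Hoxa9 0 to 3 and 0 to 15. Hoxc4 had 0 to 27 counts in abemaciclib and 1 to 15 in control tumours, Hoxc5 0 to 27 and 0 to 5, and Hoxc10 0 to 8 and 0 to 10. Hoxd9 had 0 to 14 counts in abemaciclib and 0 to 7 in control tumours, Irx4 0 to 13 and 0 to 9, and Msx1 1 to 10 and 1 to 6. Tbx1 had 0 to 14 counts in abemaciclib and 0 to 13 in control tumours, and Tbx2 3 to 18 and 3 to 23. None of these had an unadjusted edgeR p under 0.05 when the filter was dropped.

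Without the filter, edgeR's unadjusted p was under 0.05 for 2 of 77 members in the higher direction, among them Gata2 (2.60%, against 7.95% of 3734 panel genes), and for 5 in the lower direction (6.49%, against 5.46%). The lower ones were the HOXB genes above with Dlx3 and Dlx5, and 0 of the 7 passed adjustment. Dlx3, a factor of epidermal and placental differentiation, had 0 to 26 counts in abemaciclib tumours, with a median of 1.5, and 0 to 40 in control tumours, with a median of 17. Of the treated tumours 11 of 12 lay below the control median, and the log2 fold change was -1.74 (SE 0.643, adjusted p = 0.227). Dlx5, a bone and limb factor, had 0 to 7 counts in abemaciclib tumours, with a median of 1, and 0 to 106 in control tumours, with a median of 3. The 106 counts were those of control tumour 8, and the other 22 tumours held 0 to 13, beside a fitted difference of -2.66 on the log2 scale (SE 0.781, adjusted p = 0.136). Gata2, a factor of blood progenitors and mast cells, had 5 to 15 counts in abemaciclib and 1 to 12 in control tumours, with medians of 6 and 4. Its log2 fold change was 0.66 (SE 0.312, adjusted p = 0.360), and 11 of 12 treated tumours were above the control median. Kit, the only mast cell marker on the panel and a gene that mammary luminal progenitors also express, had 139 to 398 CPM in abemaciclib and 67.8 to 423 CPM in control tumours.

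Sox15, a factor of stratified epithelium, was high in tumours of both groups. It had 74 counts in abemaciclib tumour 3, 46 in abemaciclib tumour 10 and 27 in control tumour 3, with medians of 1.5 counts in abemaciclib and 2 in control tumours. These were also the 3 tumours with the highest summed basal markers, at 12785, 9060 and 5158 CPM in that order. Krt5, a basal keratin, reached 2869, 2026 and 1492 CPM there, against group medians of 240 CPM in abemaciclib and 189 CPM in control tumours. Whether Sox15 comes from the cells that carry these keratins was not tested.

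**Figure D5:**
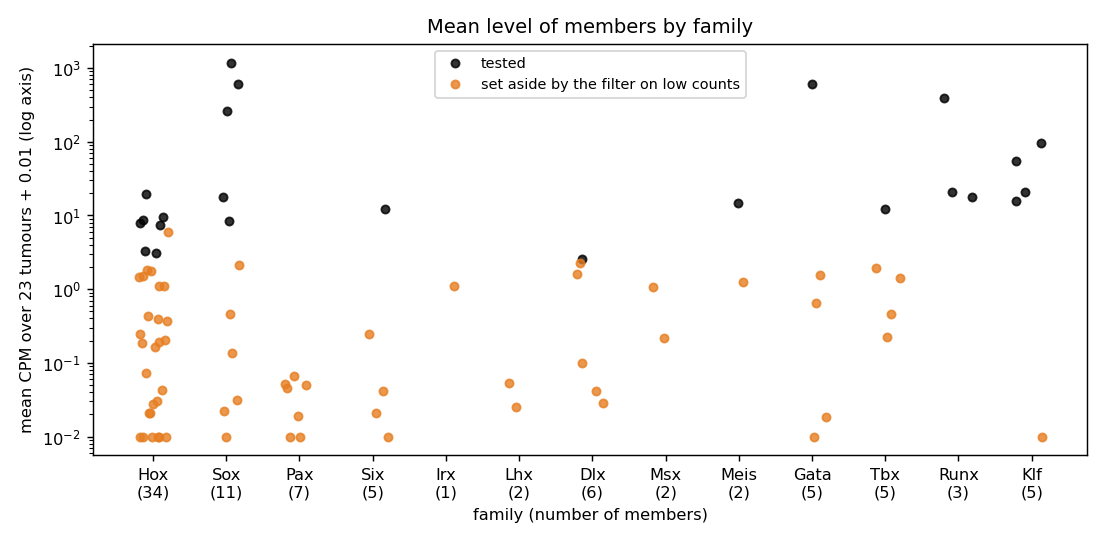
Mean CPM + 0.01 over 23 tumours (log axis) of each member, in 13 families, black where tested and orange where too low to be tested. All 7 Pax members lie below 0.1 CPM, while Sox10 reaches 1182 CPM.

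Members were compared with each other within each group, over 300 pairs of tested members, by Pearson's r and Spearman's rho of log2 CPM with permutation tests. After Benjamini-Hochberg adjustment 0 pairs passed in either group by either measure. Unadjusted, 47 pairs in abemaciclib and 28 in control tumours were under 0.05 by Pearson's r, and 34 and 24 by Spearman's rho. The share among pairs of other panel genes was not worked out, so these counts do not set the members apart. By both measures in both groups, 4 pairs were under 0.05. Hoxb2 and Hoxb4 had r = 0.58 and rho = 0.71 in abemaciclib tumours (permutation p = 0.0492 and 0.0111; adjusted 0.314 and 0.313) and r = 0.95 and rho = 0.67 in control tumours (permutation p = 0.00065 and 0.0282; adjusted 0.160 and 0.587). Without the 2 tumours farthest from the median of Hoxb2, r was 0.54 in abemaciclib and 0.51 in control tumours (permutation p = 0.107 and 0.159). The value fell more in control than in abemaciclib tumours, but r can fall with fewer tumours and a narrower range. Whether the control value rests on the 2 left out was not settled. Neighbours in another cluster, Hoxc6 and Hoxc8, had r = 0.63 and rho = 0.60 in abemaciclib tumours (permutation p = 0.0287 and 0.0427; adjusted 0.297 and 0.427) and r = 0.78 and rho = 0.75 in control tumours (permutation p = 0.00285 and 0.01002; adjusted 0.214 and 0.587). Leaving out 2 tumours kept this r at 0.63 and 0.80 (permutation p = 0.04995 and 0.00164; adjusted 0.508 and 0.137).

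Gata3 and Sox10 had r = 0.70 and rho = 0.64 in abemaciclib tumours (permutation p = 0.0135 and 0.0298; adjusted 0.214 and 0.373) and r = 0.76 and rho = 0.62 in control tumours (permutation p = 0.00698 and 0.0475; adjusted 0.234 and 0.594). Without 2 tumours, r was 0.63 and 0.51 (permutation p = 0.0539 and 0.169), each with 2 tumours fewer. Hoxd8 and Klf2 had r = 0.78 and rho = 0.83 in abemaciclib tumours (permutation p = 0.00199 and 0.00150; adjusted 0.0892 and 0.275) and r = 0.71 and rho = 0.67 in control tumours (permutation p = 0.0125 and 0.0274; adjusted 0.267 and 0.587). Without 2 tumours, r was 0.65 in abemaciclib and 0.43 in control tumours (permutation p = 0.0365 and 0.255). With fewer tumours and a narrower range r can fall, so whether the control value rests on those 2 was not settled. The panel genes most like Hoxb8 by the mean of the within-group rho were Ehmt2 at 0.600, Bnip3l at 0.584, Sccpdh at 0.573, Dffa at 0.565 and Mmd at 0.563, as a description over 12 and 11 tumours.

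Genes that act with these families were read from 8 lists, and 0 of their genes passed edgeR's adjusted threshold. Polycomb and trithorax regulators, which hold Hox genes off or on, had 15 tested genes, 4 positive and 11 negative, with a median log2 fold change of -0.05. Ezh2, the Polycomb methyltransferase, had 36.7 ± 8.80 CPM in abemaciclib and 49.3 ± 15.5 CPM in control tumours (SD, n = 12 and 11; log2 fold change -0.42, adjusted p = 0.206). Its partner Suz12 had a log2 fold change of -0.21 (adjusted p = 0.357), and Bmi1, of the other Polycomb complex, had 0.18 (adjusted p = 0.317). Retinoic acid genes, which set Hox expression in the embryo, numbered 12 tested, 6 positive and 6 negative, with a median of 0.07. Crabp1, a retinoic acid carrier, had 0.98 (adjusted p = 0.190), the receptor Rara -0.27 (adjusted p = 0.190) and the synthesising enzyme Aldh1a3 -1.11 (adjusted p = 0.236). TALE and other Hox partners had 2 tested genes, both negative, and the Cdx genes of the list had at most 1 count.

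Among luminal factors linked to Gata3, 5 of 10 tested genes were positive and 5 negative, with a median of 0.09. Tfap2c had 395 ± 113 CPM in abemaciclib and 536 ± 85.03 CPM in control tumours (SD, n = 12 and 11; log2 fold change -0.44, edgeR adjusted p = 0.184), Tfap2a had -0.30 (adjusted p = 0.172) and the prolactin receptor gene Prlr 0.30 (adjusted p = 0.327). Immediate-early genes, which share stimuli with Klf genes, had 3 of 13 positive and a median of -0.21, led by Nr4a1 at -1.30 (adjusted p = 0.0911). Of 5 skeletal genes linked to Runx2 and Sox9, 4 were positive, with Mmp13 at 1.31 (adjusted p = 0.146) and Alpl at -0.47 (adjusted p = 0.185). Partners of sine oculis-related, RUNX, GATA and LIM factors had 3 tested genes, with Eya2, a coactivator of sine oculis-related proteins, at -0.30 (adjusted p = 0.213). Lymphocyte genes linked to Tbx21 and Gata3 had 1 of 5 positive and a median of -0.30.

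Among cell type markers, 0 genes were past edgeR's adjusted threshold in each of 12 lists. Cell division markers were negative for 9 of 9 tested genes, with a median of -1.04, and macrophage markers positive for 5 of 5, with a median of 0.45. Basal markers were positive for 5 of 5 (median 0.75), fibroblast markers for 6 of 7 (0.37), endothelial markers for 7 of 8 (0.10), luminal markers for 4 of 9 (-0.02), T or natural killer markers for 4 of 7 (0.04) and adipocyte markers for 1 of 2 (-0.01). Mast cell, skeletal muscle and nerve lists had 1 tested gene each, Kit at 0.11, Des at 1.39 (SE 0.951) and Ngfr at 0.13. The B cell list had 0. The part of these cells in any member's level was not tested.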

How the data were processed

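RNA of 23 tumours was read with an Ion AmpliSeq custom panel, 1 amplicon for each of 3826 genes, per the labels' protocols. The deposited values are raw counts per gene, with no normalization. The submitters' processing notes name mm10. Aligner, counter, strand setting and amplicon positions: not given in the sources searched. Counts hold PCR copies, so limits cover counting error only. Gene positions came from GENCODE M21 on GRCm38, 1-based, for all 89 members.

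The counts were analysed with edgeR 4.0.16 in R 4.3.3. Its filterByExpr, told the groups, kept 2925 genes and set 901 aside. After TMM scaling, glmQLFit and glmQLFTest gave two-sided tests, and p-values were adjusted by Benjamini-Hochberg over all tested genes, with a threshold of 0.05. The biological coefficient of variation was 32.6%. Intervals at 95% use each SE. CPM used the TMM-scaled totals, log2 CPM a prior count of 2, and two-sided permutation tests 100000 resamples. DESeq2 1.42.0, limma-voom 3.58.1, other scalings and filters, a replicate block and left-out tumours were alternatives, and the fits were tested on simulated data. No library was a copy of another: the lowest chi-square per degree of freedom over 253 pairs was 18.4.

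Members, the 8 partner lists and the 12 marker lists were chosen with earlier results of these data known. Text names the 12 tested members with the smallest p, Hoxb8, the highest member of each family, each member set aside, correlated pairs, up to 3 genes of each partner list at an unadjusted p under 0.05 and the 5 genes most like Hoxb8. Members named beyond these, and pairs under an unadjusted 0.05, were chosen after their values were seen. A few genes that the rule takes are not reported here.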

Additional observations from a re-analysis of the deposited data

How the results depend on the processing

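The counts of members called higher and lower stayed at 0 in 36 alternatives each, and the median log2 fold change over members stayed between -0.12 and 0.12. Scaling to library totals moved the median of all tested genes to -0.12 and that of members to -0.12. Some values changed sign without passing a test, and not only values near 0. Dlx4 was -0.0081 with upper-quartile factors, -0.12 with library totals, -0.063 with limma-voom and -0.045 without abemaciclib tumours 3 and 4 and control tumour 3, a fit that also gave Meis1 -0.0062 and Sox10 0.014. Klf4 was -0.078 without abemaciclib tumours 3 and 10. Hoxb2 was 0.089 and Hoxb4 0.34 without control tumours 8 and 11, against -1.63 and -1.44 in the main fit. Both stayed negative when abemaciclib tumour 8 was left out as well. These left-out sets, other than abemaciclib tumours 3 and 10, and the permutation test were chosen after seeing the data. Leaving out 1 tumour at a time gave -0.073 to 0.099 for Dlx4 and -0.27 to 0.11 for Tbx3. The cause of these changes was not tested.

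The tumour numbers of the groups did not pair: of 11 same-numbered pairs, 5 correlated above 0.1, and 2 abemaciclib tumours matched their own number best. With the replicate block 24 members were tested and 0 called, and Tbx3 was 0.067. Hoxb8 did not pass the filter in that fit, which leaves out abemaciclib tumour 12. Hoxb8 was tested in 30 of the 36 alternatives. It was also missing when abemaciclib tumour 2, 3, 11 or 12 alone was left out, and at a mean count of at least 50. Leaving out 1 treated tumour could thus remove Hoxb8 from testing. Most members had few counts per library, and the filter kept 25 of 89 for testing.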
